A study of Mus musculus with 2 samples.

Results

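The aryl hydrocarbon receptor, its partner Arnt and the hypoxia-inducible factors were followed as a set of 10 genes among 22054 genes measured in lower molar mesenchyme of mouse embryos. The set holds the basic helix-loop-helix PAS factors Ahr, Ahrr, Arnt, Arnt2, Hif1a, Epas1 and Hif3a and the Ahr target genes Cyp1a1, Cyp1b1 and Tiparp. Its members were found by gene name, in 13 of 28107 transcript rows. The set itself was chosen by a value of these same libraries, the lower RPKM of Ahr in the mutant, so what is given on Ahr is a description. The first library came from Osr2 homozygous mutants (Osr2-/-) and the second from Osr2 heterozygous controls (Osr2+/-), both at embryonic day 14.5 on a mixed background. Both genotypes thus carry at least 1 mutant Osr2 allele, and wild-type tissue is not part of the comparison. The mesenchyme was cut from frozen sections by laser capture, tissue of 3 pairs of samples was pooled before RNA extraction, and the cDNA was amplified from small amounts of RNA. With 1 library per genotype there is no replicate check. Differences describe these 2 libraries, and no p-value is given.

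Ahr is a ligand-activated transcription factor that waits in the cytoplasm in a complex with the heat shock protein Hsp90. When a ligand binds, it enters the nucleus, pairs with Arnt and binds DNA at xenobiotic response elements, which hold the core GCGTG. Its best known targets are the cytochrome P450 genes Cyp1a1 and Cyp1b1 and the genes of its own inhibitors, Ahrr and Tiparp. The hypoxia-inducible factor alpha subunits encoded by Hif1a, Epas1 and Hif3a also pair with Arnt, and oxygen controls them mainly through the stability of the protein, which RNA levels do not show.

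The promoters of the 4 Ahr target genes are shown first, because each holds the core letters GCGTG on at least 1 strand. Each runs from 250 bases before to 50 bases after the gene's start, 5′ to 3′ on the gene's strand, from RefSeq on build GRCm38.p6, and capitals mark GCGTG or its reverse complement CACGC. Cyp1b1 lies at chr17:79715012-79715311 (minus strand), Tiparp at chr3:65528197-65528496 (plus strand), Ahrr at chr13:74292282-74292581 (minus strand) and Cyp1a1 at chr9:57697363-57697662 (plus strand).
Cyp1b1: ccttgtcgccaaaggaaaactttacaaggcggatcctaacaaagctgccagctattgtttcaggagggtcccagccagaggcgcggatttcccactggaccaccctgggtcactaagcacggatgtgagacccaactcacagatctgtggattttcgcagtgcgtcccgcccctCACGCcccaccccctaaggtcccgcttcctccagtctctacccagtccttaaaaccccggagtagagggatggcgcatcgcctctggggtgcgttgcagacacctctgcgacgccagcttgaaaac
Tiparp: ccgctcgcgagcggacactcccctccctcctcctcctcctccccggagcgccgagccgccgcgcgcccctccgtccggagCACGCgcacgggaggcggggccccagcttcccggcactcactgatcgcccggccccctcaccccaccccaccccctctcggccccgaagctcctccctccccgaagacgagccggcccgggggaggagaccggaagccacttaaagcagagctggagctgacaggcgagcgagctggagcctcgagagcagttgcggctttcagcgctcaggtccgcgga
Ahrr: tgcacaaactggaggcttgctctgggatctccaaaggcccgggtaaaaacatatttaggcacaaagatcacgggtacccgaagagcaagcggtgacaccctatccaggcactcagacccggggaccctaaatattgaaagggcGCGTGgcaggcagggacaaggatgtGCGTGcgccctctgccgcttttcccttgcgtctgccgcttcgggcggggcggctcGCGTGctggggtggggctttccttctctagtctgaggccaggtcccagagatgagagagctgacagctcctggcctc
Cyp1a1: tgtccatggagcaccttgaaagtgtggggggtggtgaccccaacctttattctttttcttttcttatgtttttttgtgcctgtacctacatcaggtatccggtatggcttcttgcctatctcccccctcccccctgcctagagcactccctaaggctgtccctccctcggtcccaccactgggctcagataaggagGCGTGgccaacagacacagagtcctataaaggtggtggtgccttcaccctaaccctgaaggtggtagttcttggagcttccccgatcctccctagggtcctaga

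Promoters of 8 of the 10 genes were matched in the RefSeq table, and 6 of these 8 held GCGTG on either strand, against 32.4% of 32851 promoters of 300 bases. The Ahrr promoter held 3 matches, Hif3a held 2, and Arnt, Cyp1a1, Cyp1b1 and Tiparp held 1 each. The longer form TNGCGTG, in which the core follows a T and any base, was found once, in the Ahrr promoter 29 bases before the start, and in 5.07% of all these promoters. The hypoxia response core ACGTG, searched on both strands, was found in the Hif1a promoter alone among the 8. That promoter held 3 matches, of which 2 overlap because CACGTG reads the same on both strands, and ACGTG was in 19.6% of all promoters. A match is a string of letters in this window and not a binding site.

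Values are RPKM, reads divided by transcript length and by the depth of the library, summed over the rows of a gene. Each value has a 95% counting interval from approximate read numbers, which covers counting error only. The mutant library was 6.38 times as deep as the control library, with about 33.0 M mapped reads in the mutant and 5.17 M in the control, and its intervals are therefore narrower. The libraries were run on different lanes, per their file names, and an effect of the lane cannot be told apart from one of the genotype. Osr2 itself was at 9.16 RPKM in the mutant, against 38.7 RPKM in the control, a ratio of 0.236 (0.206 to 0.272). Which exons the Osr2 allele lacks is not stated in the labels.

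Ahr was the member that stood apart between the libraries. It had 3.18 RPKM in the mutant (2.93 to 3.45, about 576 reads), against 8.09 RPKM in the control (7.08 to 9.21, about 230 reads). The intervals do not overlap, and the mutant level was the lower one. The ratio of mutant over control was 0.393 (0.337 to 0.460), which is 2.54-fold lower in the mutant. On the scale of log2(RPKM + 1), which understates differences of low genes, the log2 ratio was -1.12. Ahr is listed with 1 row of 5494 bases on chromosome 12, from 36182651 to 36219661 in mm9. Its level exceeded that of 47.5% of all genes past the filter in the mutant and of 77.3% in the control.

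**Figure D1:**
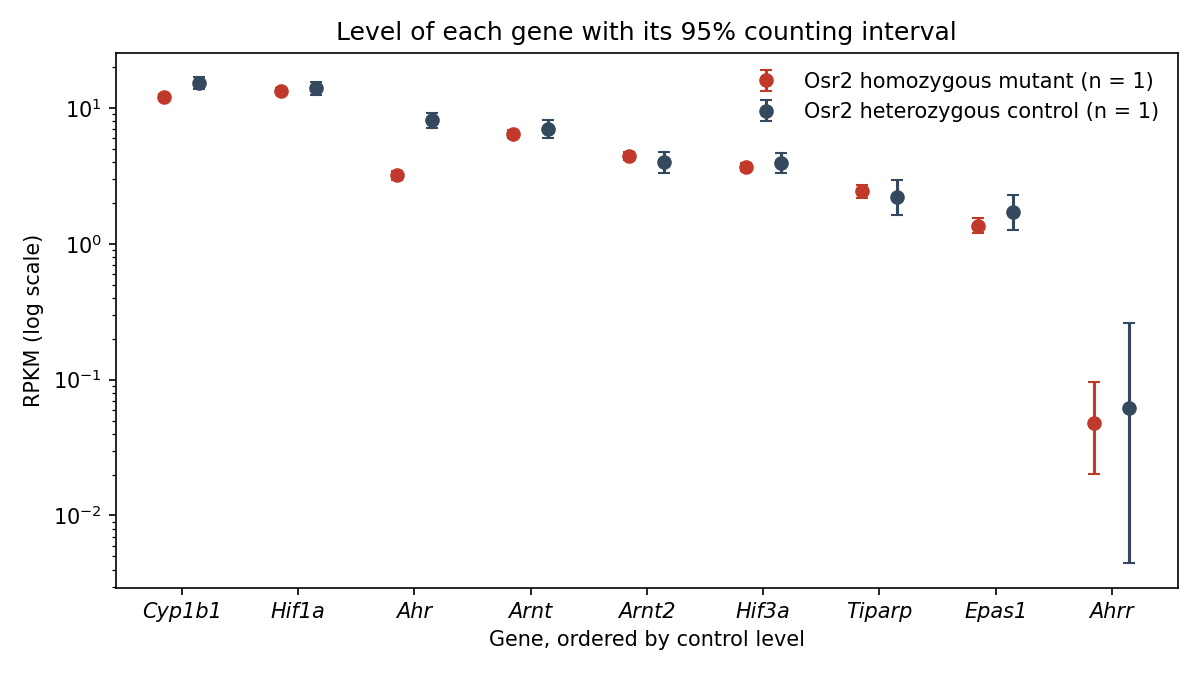
RPKM on a log axis for the 9 genes above 0, in the Osr2 homozygous mutant (red, left) and the Osr2 heterozygous control (blue, right), 1 library each; bars are 95% counting intervals. Ahr is at 3.18 RPKM in the mutant and 8.09 RPKM in the control with intervals far apart, while most other pairs lie close together. Cyp1a1 is listed at 0 in both libraries and is not drawn.

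The members were also set beside all genes. A filter of at least 1 RPKM in at least 1 library left 9779 genes and 8 of the 10 members; Ahrr and Cyp1a1 did not pass. Of the 8 members, 1 (Ahr) was at least 2-fold apart on the log2(RPKM + 1) scale, while 1.69% of the 9779 genes were at least 2-fold apart and 0.798% were at least 2-fold lower in the mutant. Since Ahr was known to be lower when the set was chosen, nothing is read from this count or from the rank of Ahr. Ordered from the lowest log2 ratio upward, Ahr was gene 60 of 9779. Cyp1b1 was next among the members, with 15.4% of all genes below it. The median log2 ratio was -0.09 for the 8 members and -0.05 for all 9779 genes.

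**Figure D2:**
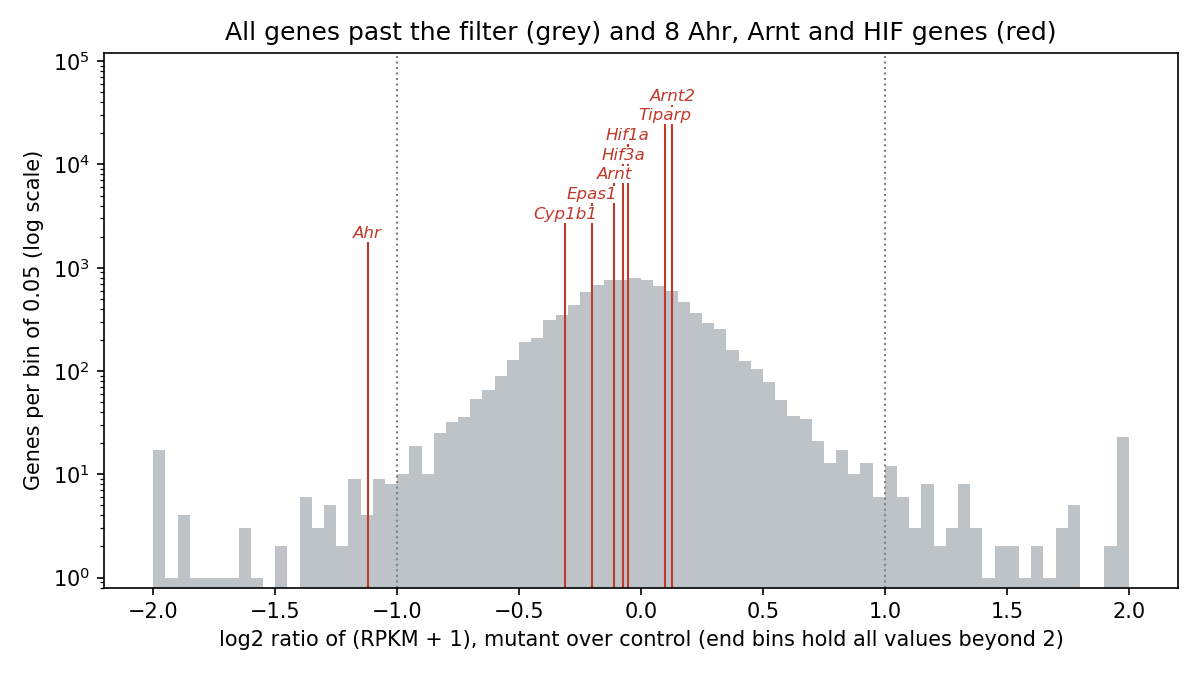
Number of genes (log axis) by log2 ratio of mutant over control RPKM + 1 for 9779 genes past the filter (grey), with the 8 members past the filter as red lines; dotted lines mark 2-fold. Ahr, at -1.12, is the one red line beyond the dotted line, and the other 7 lie between -0.31 and 0.13.

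Counting intervals of the ratio are another way to compare the members with all genes. Of the 8 members, 2 (Ahr and Cyp1b1) had a counting interval of the ratio below 1, as did 15.2% of all genes past the filter. Ahr was known to be lower when the set was chosen, so nothing is read from this count. None of the 8 had an interval above 1, against 7.54% of all genes. The other 6 members had intervals that include 1, so differences within those intervals were not detectable at this depth.

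Among the Ahr targets, the most abundant transcript was that of Cyp1b1, an enzyme that oxidises foreign compounds, oestrogens and retinoids. It had 12.1 RPKM in the mutant (11.6 to 12.6), against 15.2 RPKM in the control (13.8 to 16.8). The mutant level was the lower one, at a ratio of 0.793 (0.713 to 0.885) and a log2 ratio of -0.31. Cyp1b1 lies on chromosome 17, from 80106293 to 80114381 in mm9. Its promoter above holds 1 CACGC, 76 bases before the start.

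Tiparp, which encodes a poly(ADP-ribose) polymerase family enzyme that inhibits Ahr, was at similar levels in both libraries. It had 2.43 RPKM in the mutant (2.17 to 2.70), against 2.20 RPKM in the control (1.62 to 2.93). The control rests on about 47 reads, and the ratio of 1.10 (0.811 to 1.53) leaves room for a difference in either direction. Tiparp lies on chromosome 3, from 65332369 to 65359440 in mm9.

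Ahrr, the repressor that competes with Ahr for Arnt, was close to the limit of detection. It had 0.0481 RPKM in the mutant (0.0201 to 0.0968, about 7.5 reads), against 0.0615 RPKM in the control (0.00445 to 0.262, about 1.5 reads). The ratio of 0.783 has an interval from 0.132 to 12.5, so no difference could be seen. Ahrr lies on chromosome 13, from 74348566 to 74429757 in mm9. Both rows of Cyp1a1, the classic Ahr target, are listed at 0 in both libraries. Its rows end at 57551631 on chromosome 9 in mm9 and start at 57535735 and 57545420.

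The ratios between Ahr and its targets within a library do not depend on the scaling of the libraries. Cyp1b1 was at 3.80 times the RPKM of Ahr in the mutant and at 1.88 times in the control. Tiparp was at 0.763 times the RPKM of Ahr in the mutant and at 0.272 times in the control. Both ratios have Ahr as the divisor. Their higher values in the mutant thus mainly restate the lower RPKM of Ahr, by which the set was chosen.

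The shared partner genes Arnt and Arnt2 differed little between the libraries in their summed level. Arnt, the partner of both Ahr and the hypoxia-inducible factors, had 6.42 RPKM in the mutant (6.01 to 6.85), against 7.00 RPKM in the control (5.95 to 8.19). The ratio was 0.916 (0.775 to 1.09). Arnt2, a paralogue known mainly from neural tissue, had 4.44 RPKM in the mutant (4.15 to 4.75), against 3.98 RPKM in the control (3.31 to 4.75), at a ratio of 1.12 (0.924 to 1.36). Arnt lies on chromosome 3, from 95238312 to 95301161, and Arnt2 on chromosome 7, from 91394789 to 91558469, both in mm9. Ahr was thus at 0.496 times the RPKM of Arnt in the mutant and at 1.15 times in the control. Against Arnt and Arnt2 together, Ahr was at 0.293 times their summed RPKM in the mutant and at 0.736 times in the control.

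**Figure D3:**
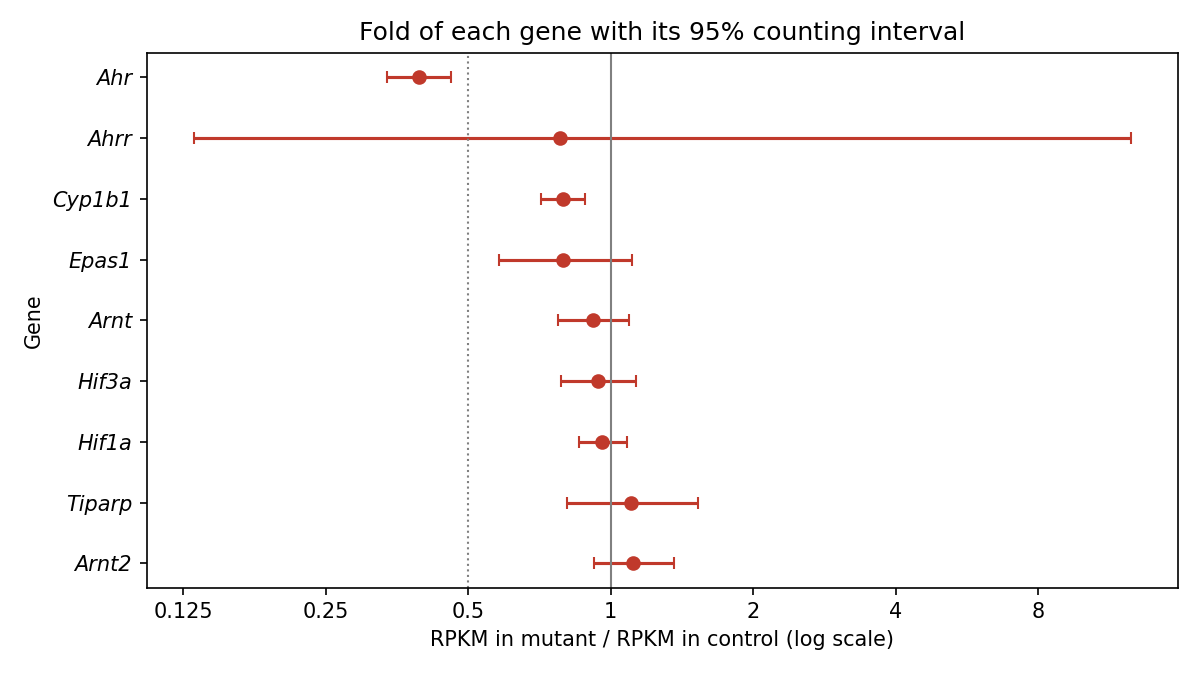
Ratio of mutant over control RPKM on a log axis for the 9 genes above 0, with 95% counting intervals; the solid line marks 1 and the dotted line 0.5. Only the intervals of Ahr (0.337 to 0.460) and Cyp1b1 (0.713 to 0.885) lie below 1 among these 9, and that of Ahrr spans 0.132 to 12.5.

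The 2 rows of Arnt were assigned different shares in the 2 libraries, although their sum was similar. The row of 4369 bases had 4.51 RPKM in the mutant, against 3.50 RPKM in the control. The row of 4324 bases had 1.91 RPKM in the mutant, against 3.51 RPKM in the control. The longer row thus held 70.3% of Arnt in the mutant and 50.0% in the control. The rows differ by 45 bases, which matches exon 5 of the longer transcript in GENCODE M21, at chr3:95466793-95466837 on the plus strand of GRCm38. That exon is shown in capitals between 10 bases of each neighbouring exon, because it alone separates the rows.
Arnt: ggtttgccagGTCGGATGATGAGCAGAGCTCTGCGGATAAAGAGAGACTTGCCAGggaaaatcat

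From the coverage of the rows, about 16.2 reads in the mutant but only about 2.4 reads in the control would touch this exon or its skipping junction. All other Arnt reads are shared by both rows and were assigned between them by the authors' quantification. In the mutant, about 13.4 reads would touch the exon and about 2.8 its skipping junction. The split therefore rests on few reads in both libraries, and on very few in the control. No counting interval is given for it. With only the highest row of each gene, the log2 ratio of Arnt was 0.29, against -0.11 with its rows summed.

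**Figure D4:**
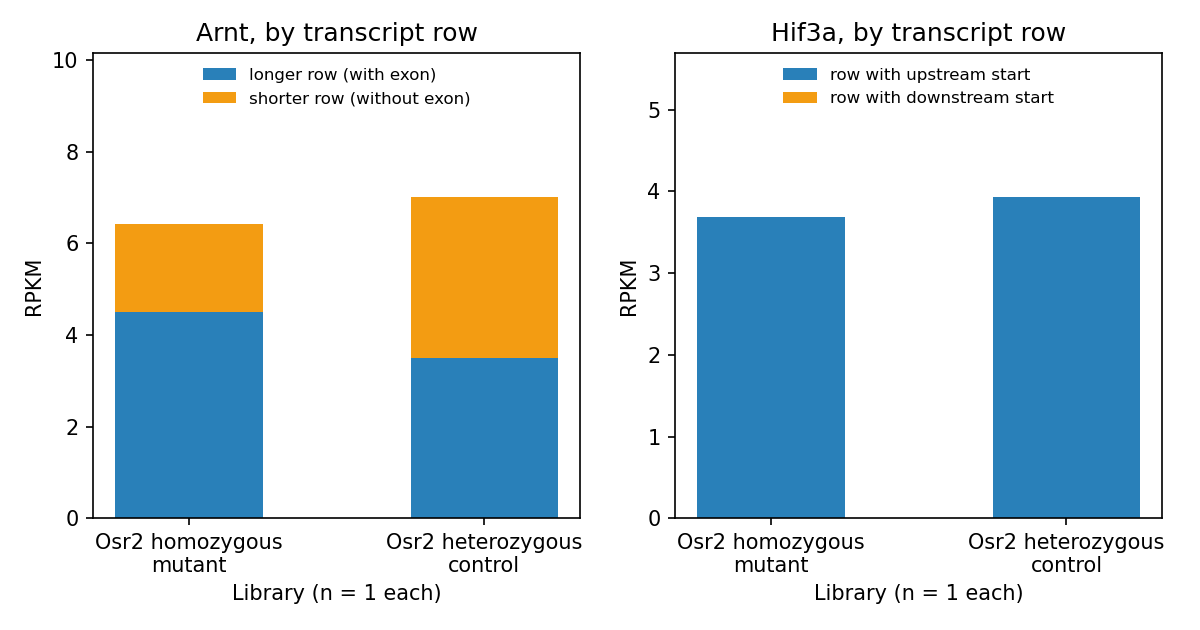
RPKM of each transcript row, stacked, for Arnt (left panel) and Hif3a (right panel), in the mutant (left bar) and the control (right bar), 1 library each. The longer Arnt row (blue) makes up 70.3% of the mutant bar and 50.0% of the control bar, and the Hif3a bars consist of the row with the upstream start.

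The hypoxia-inducible factor genes were all detected, and none differed beyond its counting interval. Hif1a, the broadly expressed alpha subunit, had 13.4 RPKM in the mutant (12.8 to 14.0), against 13.9 RPKM in the control (12.5 to 15.5), at a ratio of 0.961 (0.857 to 1.08). With about 2105 reads in the mutant and 343 in the control, its interval is among the narrowest of the set. Hif1a lies on chromosome 12, as Ahr does, from 75008854 to 75048517 in mm9. Epas1, which encodes the HIF-2 alpha subunit known from blood vessels, had 1.36 RPKM in the mutant (1.19 to 1.54), against 1.71 RPKM in the control (1.26 to 2.28). Its ratio of 0.795 (0.580 to 1.11) rests on about 47 control reads. Epas1 lies on chromosome 17, from 87153204 to 87232750 in mm9. Hif1a was at 9.84 times the RPKM of Epas1 in the mutant and at 8.14 times in the control.

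Hif3a, whose products include inhibitory forms, had 3.68 RPKM in the mutant (3.44 to 3.94), against 3.93 RPKM in the control (3.30 to 4.63), at a ratio of 0.939 (0.784 to 1.13). Nearly all of it was assigned to 1 of its 2 rows in both libraries. The row of 6916 bases, which runs from 17616342 to 17647776 on chromosome 7 in mm9, had 3.68 RPKM in the mutant and 3.93 RPKM in the control. The row of 6947 bases, which ends at 17642028, was at 0.000109 RPKM in the mutant and 0.000576 RPKM in the control. In GENCODE the gene is read from the minus strand, so the 2 rows start 5748 bases apart, and their first exons of 72 and 103 bases are joined to the same second exon. Only reads that touch these short first exons can tell the rows apart, and their number was not worked out. All other Hif3a reads are shared by both rows and were assigned between them by the authors' quantification. The split between the 2 starts therefore rests on a small part of the reads. The promoter of the upstream start, the one that the reads were assigned to, is shown from RefSeq at chr7:17062378-17062677 (minus strand, GRCm38.p6), with GCGTG and CACGC in capitals.
Hif3a: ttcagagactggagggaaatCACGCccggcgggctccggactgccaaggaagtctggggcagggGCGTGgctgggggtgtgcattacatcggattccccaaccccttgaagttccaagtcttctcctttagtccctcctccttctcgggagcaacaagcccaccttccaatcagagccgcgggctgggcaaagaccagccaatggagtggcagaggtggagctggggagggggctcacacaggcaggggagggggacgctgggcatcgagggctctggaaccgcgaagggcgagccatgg

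The order of the genes by RPKM differed between the libraries mainly in the place of Ahr. In the mutant the order was Hif1a, Cyp1b1, Arnt, Arnt2, Hif3a, Ahr, Tiparp, Epas1, Ahrr. Every neighbouring pair was separated by its counting interval, which covers counting error only and not differences between genes in amplification. In the control the order was Cyp1b1, Hif1a, Ahr, Arnt, Arnt2, Hif3a, Tiparp, Epas1, Ahrr. There, 4 neighbouring pairs were not separated at the lower depth: Cyp1b1 and Hif1a, Ahr and Arnt, Arnt2 and Hif3a, and Tiparp and Epas1. Hif1a was at 4.21 times the RPKM of Ahr in the mutant and at 1.72 times in the control.

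The genes of the proteins that hold and stabilise Ahr in the cytoplasm did not differ beyond their counting intervals. Of 4 chaperone complex genes, all passed the filter, none was 2-fold apart, and none had an interval that excluded 1, with a median log2 ratio of -0.01. Hsp90aa1 had 60.9 RPKM in the mutant, against 62.2 RPKM in the control, and Hsp90ab1 267 RPKM in the mutant, against 266 RPKM in the control. Ptges3, the co-chaperone p23, had 54.6 RPKM in the mutant, against 50.3 RPKM in the control, and the kinase gene Src 1.59 RPKM in the mutant, against 1.75 RPKM in the control.

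Other Ahr targets were mostly too low to compare. Of 11 further target genes, 2 passed the filter, and 4 (Cyp1a2, Gsta1, Gsta2 and Serpinb2) are listed at 0 in both libraries. Nqo1, a quinone reductase gene, had 1.20 RPKM in the mutant, against 1.96 RPKM in the control, at a ratio of 0.614 (0.349 to 1.15) on about 16 control reads. Nfe2l2, which encodes the oxidative stress factor Nrf2, had 10.8 RPKM in the mutant, against 11.2 RPKM in the control, at a ratio of 0.966 (0.808 to 1.16).

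Of 12 other PAS-domain genes and coactivators, 5 passed the filter and none was 2-fold apart. Npas3, a factor known from brain development, had 1.40 RPKM in the mutant, against 2.11 RPKM in the control, at a ratio of 0.665 (0.505 to 0.888). The nuclear receptor coactivator genes went both ways. Ncoa2 had 6.08 RPKM in the mutant, against 7.11 RPKM in the control, at a ratio of 0.854 (0.759 to 0.974), while Ncoa3 had 2.07 RPKM in the mutant, against 1.53 RPKM in the control, at a ratio of 1.35 (1.03 to 1.80). Clock, the circadian factor, had 1.92 RPKM in the mutant, against 1.59 RPKM in the control, with an interval from 0.927 to 1.61.

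In the oxygen-sensing and turnover genes of the hypoxia-inducible factors, 13 of 14 passed the filter and none was 2-fold apart, with a median log2 ratio of -0.06. An interval below 1 was found for 2 of the 13, a share close to the 15.2% of all genes, and an interval above 1 for none. Cited2, which encodes a factor that competes with Hif1a for the coactivators p300 and CBP, had 16.8 RPKM in the mutant, against 28.4 RPKM in the control. Its ratio of 0.591 (0.518 to 0.675) was the lowest of this list. Ep300, the p300 gene, had 5.71 RPKM in the mutant, against 6.97 RPKM in the control, at a ratio of 0.820 (0.727 to 0.928). Vhl, the ubiquitin ligase subunit that recognises hydroxylated alpha subunits, had 2.21 RPKM in the mutant, against 3.08 RPKM in the control, with an interval of the ratio from 0.513 to 1.02. Tceb1, the elongin C gene of the same ligase, had 7.75 RPKM in the mutant, against 6.24 RPKM in the control, with an interval from 0.852 to 1.87.

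Known targets of the hypoxia-inducible factors did not move together. Of 34 listed, 27 passed the filter, 17 had a log2 ratio below 0 and 10 above 0, and the median was -0.05, the same as that of all genes to 2 decimals. Of all genes past the filter, 57.5% had a log2 ratio below 0. An interval above 1 was found for 5 of the 27, against 7.54% of all genes, and an interval below 1 for 4, against 15.2% of all genes. The counts below 0 and below 1 are thus near those of genes in general, and the 5 above 1 were not tested against them. The genes above, named with their intervals in view where the list rule did not name them, were Bhlhe40, Ndrg1, Tfrc, Slc2a3 and Mxi1. Those below were Lox, Hk1, Slc2a1 and Gapdh. Bhlhe40, a transcription factor gene, had 2.30 RPKM in the mutant, against 0.767 RPKM in the control, at a ratio of 3.00 (1.70 to 5.83) on about 12 control reads. Because both levels are low, its log2 ratio of 0.90 on the RPKM + 1 scale stays under 2-fold. Ndrg1 had 1.37 RPKM in the mutant, against 0.606 RPKM in the control, at a ratio of 2.25 (1.15 to 5.02), and rests on about 9 control reads. Tfrc, the transferrin receptor gene, had 4.18 RPKM in the mutant, against 2.60 RPKM in the control, at a ratio of 1.61 (1.25 to 2.10). Lox, the lysyl oxidase gene, had 3.18 RPKM in the mutant, against 7.10 RPKM in the control, at a ratio of 0.448 (0.367 to 0.550).

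The glucose transporter genes on this list went in opposite directions. Slc2a1 had 11.7 RPKM in the mutant, against 14.3 RPKM in the control, and Slc2a3 had 1.64 RPKM in the mutant, against 0.865 RPKM in the control. Among the genes of glycolysis, Hk1, a hexokinase gene, had 1.68 RPKM in the mutant, against 2.79 RPKM in the control, at a ratio of 0.602 (0.452 to 0.814), and Hk2 had a ratio of 0.739 with an interval that includes 1. Gapdh had 417 RPKM in the mutant, against 435 RPKM in the control, at a ratio of 0.959 with an interval that ends just under 1 (0.921 to 0.999). Ldha had 89.6 RPKM in the mutant, against 85.0 RPKM in the control, and Pgk1 had 22.8 RPKM in the mutant, against 23.4 RPKM in the control, both with intervals that include 1. The interval of Vegfa, the gene of an angiogenic growth factor, also includes 1, at 3.80 RPKM in the mutant, against 4.14 RPKM in the control. All genes named in this paragraph were picked after their values were seen.

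**Figure D5:**
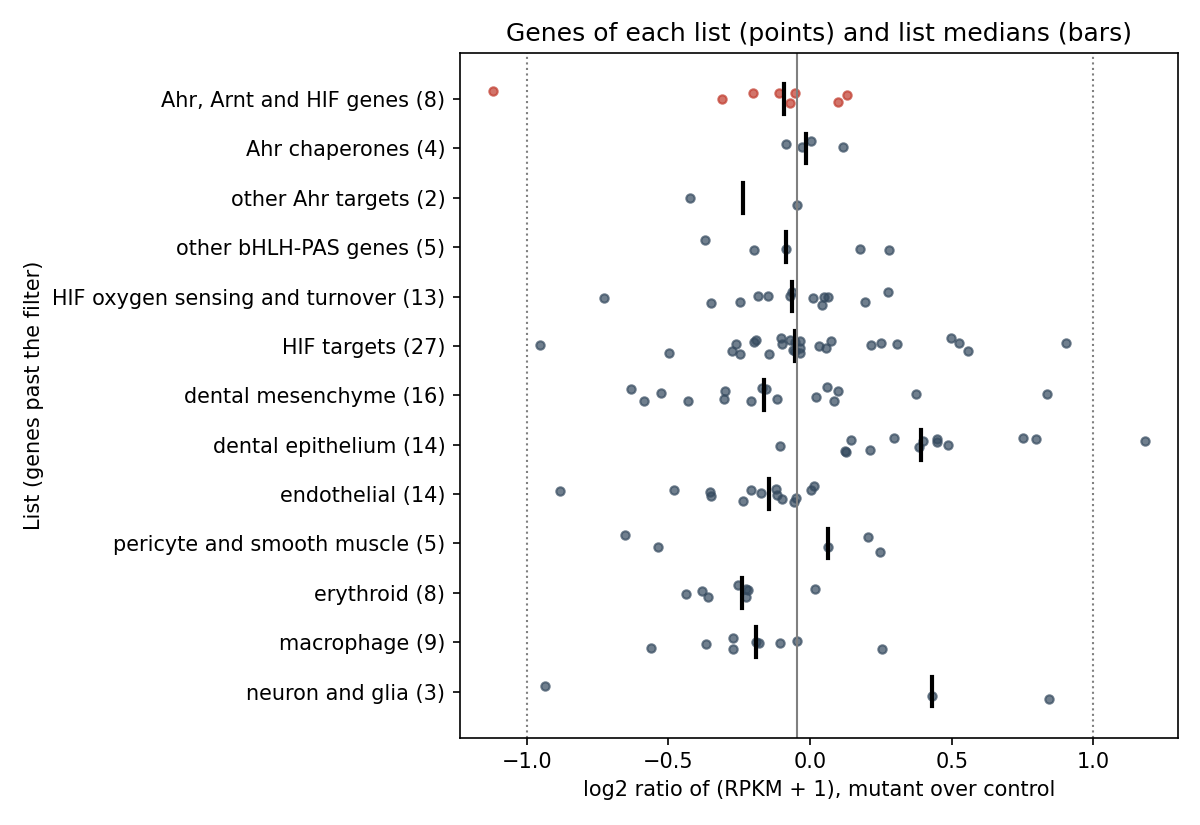
Log2 ratio of mutant over control RPKM + 1 for each gene past the filter (points), by list, with the list median (black bar); the grey line is the median of all genes and dotted lines mark 2-fold. Ahr, at -1.12, is the lowest point, the dental epithelium list has a median of 0.39, and the lists of the Ahr and HIF pathways have medians from -0.24 to -0.01.

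The libraries also differed in markers of cell types. All 16 dental mesenchyme markers passed the filter, with Prrx1 and Vim the highest, and their summed level was 577 RPKM in the mutant and 662 RPKM in the control. Of these 16, 8 had an interval below 1, against 15.2% of all genes, and 1 had an interval above 1. Those below included Pax9, with a ratio of 0.639, Lhx8, with 0.655, and Barx1, with 0.686, all of them transcription factor genes, and the 1 above was Runx2, with 1.84. Of 14 dental epithelium markers past the filter, 8 had an interval above 1, against 7.54% of all genes, and none below, and the summed level of this list was 71.0 RPKM in the mutant and 51.1 RPKM in the control. Of this list, Shh was at 0.175 RPKM in the mutant (about 15.4 reads) and Cldn7 at 0.392 RPKM in the mutant (about 17.0 reads). Both were listed at 0 in the less deep control library and did not pass the filter. Their intervals of the ratio, from 0.579 and 0.645 upward, include 1, so no difference could be seen. Krt5, a keratin gene of basal epithelium, had 16.3 RPKM in the mutant, against 13.9 RPKM in the control. Its ratio of 1.17 has an interval that includes 1 (0.989 to 1.39). Krt14 had 8.28 RPKM in the mutant, against 5.80 RPKM in the control, at a ratio of 1.43 (1.06 to 1.95). Krt17 was the 1 marker of this list at least 2-fold apart on the log2(RPKM + 1) scale. It had 4.63 RPKM in the mutant, against 1.48 RPKM in the control, at a ratio of 3.12 (1.74 to 6.21) on about 12 control reads. Of 14 endothelial markers past the filter, 12 had a log2 ratio below 0, against 57.5% of all genes. An interval below 1 was found for 2 (Tie1 and Emcn), close to the share of all genes, and an interval above 1 for none. Emcn had the lowest ratio of this list, 0.460 (0.326 to 0.686). Their summed level was 43.4 RPKM in the mutant and 53.6 RPKM in the control, with Cdh5, the cadherin gene of endothelium, the highest at 9.62 RPKM in the mutant and 10.5 RPKM in the control. The summed ratio of 0.810 lies near that of Epas1, and their part in the Epas1 value was not tested. Summed erythroid markers were at 927 RPKM in the mutant and 1163 RPKM in the control, macrophage markers at 29.3 RPKM in the mutant and 37.0 RPKM in the control, pericyte and smooth muscle markers at 23.4 RPKM in the mutant and 26.2 RPKM in the control, and neuron and glia markers at 7.73 RPKM in the mutant and 5.64 RPKM in the control. Members of the last 2 lists went both ways. Of 5 pericyte and smooth muscle markers past the filter, 3 had a log2 ratio above 0, with Pdgfrb at a ratio of 1.21 (1.06 to 1.38) and Rgs5 at 0.594 (0.464 to 0.769). Of the 3 neuron and glia markers past the filter, Nefl and Nefm had ratios of 2.19 and 1.63, while Gfra3 had 0.181 (0.084 to 0.396). Pax9, Lhx8, Barx1, Runx2, Krt17, Tie1, Emcn and Gfra3 were picked after their values were seen. The part of these cell types in the ratios of Ahr and Cyp1b1 was not tested. Fewer cells of a type and less RNA per cell cannot be told apart in such bulk samples.

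The genes whose pair of levels was most like that of Ahr were Lox, Ogn and Has2as, by the distance of log2(RPKM + 1) over the 2 libraries. Their distances from Ahr were 0.17, 0.17 and 0.20. With 2 libraries, this likeness says only that both levels were similar: Ogn, a matrix proteoglycan gene, had 3.40 RPKM in the mutant, against 9.09 RPKM in the control. Has2as had 2.74 RPKM in the mutant, against 7.34 RPKM in the control, on about 18 control reads, and its reads cannot be told apart from those of Has2 unless strand was used in counting.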

How the data were processed

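RNA of laser-captured lower molar mesenchyme was measured in 1 pooled library per Osr2 genotype. Reads had been processed with Bowtie 0.12.7 and TopHat 1.4.1 on build mm9, according to the submitters' processing notes. The files are named for Cufflinks, and whether counting used strand is not stated in the labels. The authors deposited RPKM per RefSeq transcript row and the mean coverage of each row, an unscaled signal, per the file headers. A total of 54 rows marked FAIL or HIDATA in at least 1 library, none of them of the 10 genes, were left out, and RPKM was summed per gene. Read numbers were approximated as coverage times length over 46.0 bases, the median product of 20 to 66 bases among genes with 1 row longer than 3000 bases. They gave exact Poisson intervals of levels and Clopper-Pearson intervals of ratios at 95%, scaled by depth. These cover counting error only, and they may be too narrow because amplified reads are not independent molecules. Intervals were tested on simulated reads drawn with counting error alone, so that test cannot show how they hold for amplified reads. The log2 ratio used a pseudocount of 1 RPKM. Locus starts count from 1 in mm9. Sequences and their coordinates come from RefSeq and GENCODE M21 on GRCm38 and were not converted.

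Named genes were all 10 members, Osr2, up to 4 genes with the largest absolute log2 ratio in each pathway list, up to 2 of the highest genes of each marker list, and the 3 genes nearest to Ahr, except where the text says otherwise. One gene of a pathway list is not reported here and was left out of that list after its values were seen. Members and lists were chosen with earlier results of these data known. Alternatives were a pseudocount of 0.1, other filters, scalings and row choices, and, added after seeing the data, 36 or 56 bases per read and scalings of the intervals. Python 3.11.15, pandas 2.3.3, scipy 1.17.1 and matplotlib 3.10.9 were used.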

Additional observations from a re-analysis of the deposited data

How the results depend on the processing

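Ahr remained the member past 2-fold under all 7 alternatives to the settings of the report, with log2 ratios from -1.32 (pseudocount of 0.1) to -1.08 (median of all genes set to 0). In 4 of the 7 (both filters, highest row only, failed rows kept) its ratio could not change, since Ahr has 1 row that passes every filter, and its low mutant level was known when the set was chosen. The count of all genes at least 2-fold apart was 165 in the report's setting and 441 with a pseudocount of 0.1. It was 50 with a filter of 5 RPKM and 421 with the highest transcript row only. It was 439 with values rescaled to a sum of 1e+06 in each library. The summed RPKM was 107972 in the mutant and 118957 in the control, so this rescaling raised all values. The pseudocount stayed at 1 and weighed less against them. The count and log2 ratios under rescaling thus cannot be put down to equal sums alone. With the median log2 ratio set to 0, which left the pseudocount's weight unchanged, the count was 165. The share of the genes 2-fold apart that were higher in the mutant was 52.7% in the report's setting. It was 58.1% with rescaling and 35.9% with the highest row. Rescaling moved the median log2 ratio of all genes to 0.08, against -0.05. Under it, Arnt (0.01), Hif1a (0.08) and Hif3a (0.05) were above 0 and, to 2 decimals, at or below that median, and the median of the 8 members was 0.03. Ahr and Cyp1b1 were the 2 members with an interval below 1 in each of 4 alternatives added after seeing the data (36 and 56 bases per read and both scalings), while the count over all genes was 1831, 1243, 765 (rescaled) and 1191, against 1491. With a filter of 5 RPKM, 4 members passed. No paired analysis was possible because each genotype has 1 library. Few control reads widen the intervals of the ratios, most of all for Ahrr, Tiparp and Epas1.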

Other observations

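Genes around Ahr on chromosome 12 that passed the filter all had log2 ratios below 0, and each was closer to 0 than that of Ahr, while 57.5% of all genes had a log2 ratio below 0. Within 1 Mb of Ahr in mm9, 13 other genes were listed and 6 passed the filter, none of them 2-fold apart, with log2 ratios from -0.52 to -0.17 and a median of -0.30, against -1.12 for Ahr and -0.05 for all genes. An interval below 1 was found for 3 of the 6, against 15.2% of all genes. These 6 are named after their values were seen. Sostdc1, which encodes a secreted BMP and Wnt antagonist of developing teeth, had 43.3 RPKM in the mutant (41.6 to 45.0), against 55.6 RPKM in the control (50.9 to 60.7), at a ratio of 0.778 (0.707 to 0.858). Hdac9, a histone deacetylase gene, had 1.93 RPKM in the mutant, against 3.19 RPKM in the control, at a ratio of 0.605 (0.466 to 0.794). Ankmy2 had 5.32 RPKM in the mutant, against 7.04 RPKM in the control, at a ratio of 0.756 (0.600 to 0.960). Bzw2, Snx13 and Tspan13 had ratios of 0.884, 0.831 and 0.817 with intervals that include 1.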
